A study of Mus musculus with 4 samples.

Results

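The miRNA content of the exosome fraction of 3T3-L1 preadipocytes at D0 was measured on 1 array of mouse miRNA probes in a single colour (Cy3). 3T3-L1 is an established mouse preadipocyte line, with the look of fibroblasts until differentiation medium turns it into fat cells. At D0 the cells had been kept for 3 days in growth medium (low-glucose DMEM with 10% exosome depleted FBS) and had not yet met differentiation medium, although the labels call the cell type "3T3-L1 adipocytes" on every array. The medium was cleared of debris by centrifugation, and the exosome fraction was pelleted from it by ultracentrifugation. The labels name 3 independent experiments, and the methods describe material mixed from a pair of them. The array therefore holds a pool, with no replicate, and no p-value is given. Of the 4 arrays of the series, the other 3 are of later days and were not used.

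Each of the 1881 miRNAs on the array had 30 spots, divided among 1 to 4 probes. A probe was called detected where its signal exceeded 3 times its error, and the signal of a miRNA was the sum over its detected probes, in arbitrary array units. By this rule 329 of the 1881 miRNAs, or 17.5%, were detected at D0, and these 329 are the miRNAs described here. They were chosen by the detection call of the deposited file, 1 value for each name, with control spots left out. The errors given below (±) are the technical error of the software within the array. They hold no variation between cultures. A signal also depends on how well a probe binds and how well an RNA is labelled, so an order of signals is not an order of copy numbers.

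Exosomes are small vesicles that cells release when endosomal compartments fuse with the cell surface. They carry proteins, lipids and small RNAs, miRNAs among them, into the medium and to other cells. A miRNA is cut from a hairpin precursor, whose 5′ strand gives the 5p arm and whose 3′ strand gives the 3p arm. Its seed, bases 2 to 8 counted from the 5′ end, pairs with target mRNAs and lowers their translation or stability. Numbers in miRNA names follow the order of registration, so that a high number marks a late entry.

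The brightest miRNAs are shown first, since a few of them held most of the signal. Mature sequences come from RefSeq (GRCm38.p6), were matched by name and run 5′ to 3′, with the seed in capitals. Of the 10 brightest miRNAs, these 9 had a sequence there, and miR-466i-5p is given by name.
miR-3963: uGUAUCCCacuucugacac
miR-6769b-5p: cCUGGUGGguggggaagagc
miR-6366: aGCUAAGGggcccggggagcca
miR-8110: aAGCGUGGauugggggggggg
miR-5100: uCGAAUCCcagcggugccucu
miR-1224-5p: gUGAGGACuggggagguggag
miR-5126: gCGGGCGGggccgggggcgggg
miR-494-3p: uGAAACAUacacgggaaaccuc
miR-2137: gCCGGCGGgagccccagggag
No seed was shared among these 9.

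The signal was concentrated in a few miRNAs. miR-3963 was the brightest with a signal of 1918 ± 165, which was 15.1% ± 1.12 of the signal summed over all detected miRNAs (12716). miR-6769b-5p followed at 1247 ± 90.1 and miR-6366 at 838 ± 64.1, and these 3 miRNAs together held 31.5% ± 1.1. The 10 brightest held 51.6% ± 0.844 and the 25 brightest 64.1% ± 0.640. A total of 9 miRNAs carried 50% of the signal, 48 carried 75% and 131 carried 90%. With normexp background correction, which adds 50 to every spot, 36 miRNAs carried 50% and the 10 brightest held 34.6%. The 165 dimmest carried 6.91%. The median signal of a detected miRNA was 9.93, which was 193 times lower than that of miR-3963, and the middle 50% of the miRNAs lay between 5.11 and 23.2.

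**Figure D1:**
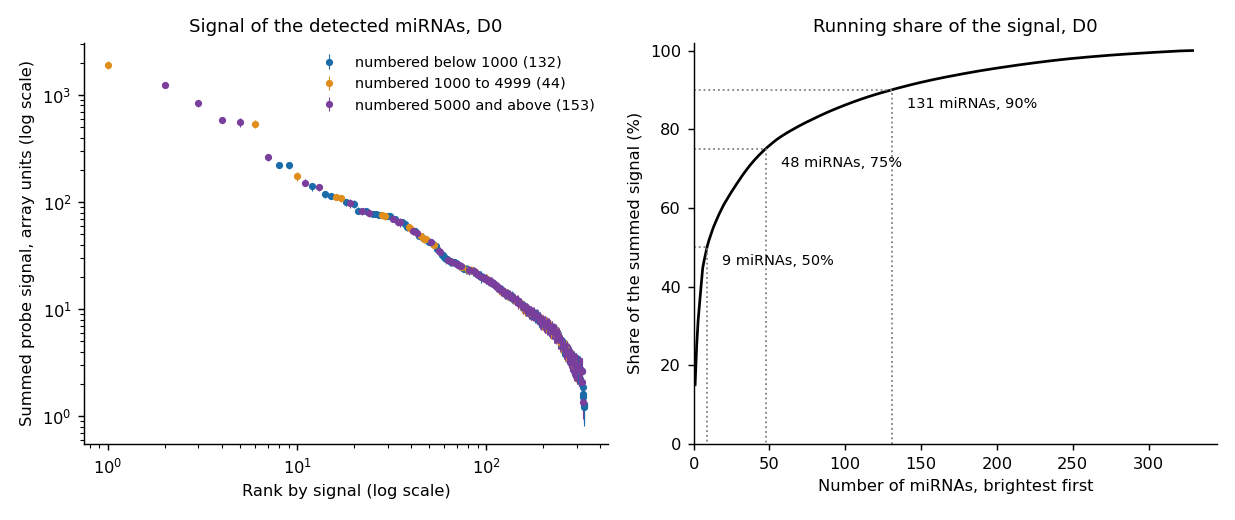
Left, summed probe signal (array units, log scale) of each of the 329 detected miRNAs at D0 against its rank (log scale), coloured by the number in its name, with bars for the error of the software. Right, share of the summed signal (%) held by the brightest miRNAs as their number grows, with dotted lines at 9, 48 and 131 miRNAs, which carry 50, 75 and 90%.

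Only the first few ranks stood apart beyond the technical error. Among the 328 pairs of neighbours in the order, 5 differed by more than 2 combined errors, and all 5 lay among the first 10 ranks. miR-3963, miR-6769b-5p and miR-6366 were each separated from the miRNA below them, by ratios of 1.54, 1.49 and 1.43. The next group was miR-8110 (587 ± 42.4), miR-5100 (559 ± 51.9) and miR-1224-5p (538 ± 41.9), which did not differ from each other beyond 2 errors. miR-1224-5p was 2.05 times as bright as miR-5126 (262 ± 18.9), the largest of these 5 steps in units of error. miR-5126 was followed by miR-466i-5p at 223 ± 16.2 and miR-494-3p at 222 ± 17.7, and none of these neighbours differed by over 2 errors. The last step lay between miR-494-3p and miR-2137 (174 ± 15.8), with a ratio of 1.28 and a difference of 2.02 errors.

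Several of the brightest miRNAs lie within the spans of protein-coding genes. In the RefSeq gene table, miR-6769b lies within the span of Unc13a on chromosome 8, which encodes a protein that primes synaptic vesicles for release. miR-5100 lies within Mief2 on chromosome 11, a gene of mitochondrial fission. miR-1224, which is cut from a short intron as a mirtron, lies within Vwa5b2 on chromosome 16. miR-5126 lies within Dner on chromosome 1, and miR-2137 within Zfp185 on chromosome X. No gene span of the table held miR-3963 on chromosome 3, miR-6366 on chromosome 16 or miR-8110 on chromosome 8. miR-494 belongs to the imprinted Dlk1-Dio3 region of chromosome 12, a large cluster of maternally expressed miRNA genes. Of the 39 miRNAs among the 50 brightest that had a position in the table, 32 lay within the span of a gene. The same share was not counted over the other miRNAs, so it is not shown to be particular to the brightest. A span says nothing of strand or of intron and exon.

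The miRNAs at ranks 11 to 25 spanned a narrower range, from 151.6 ± 11.2 for miR-7036a-5p to 78.1 ± 4.09 for miR-188-5p. miR-21a-5p, an abundant miRNA of fibroblasts and other stromal cells, stood at rank 12 with 140 ± 12.0. It was the brightest member of the lists of adipogenesis described below. miR-7118-5p (138 ± 10.2) was level with it within the error. miR-574-5p stood at 119 ± 8.65 and miR-877-3p, a mirtron product of Abcf1, at 115 ± 5.91. miR-3960 (112 ± 8.17), miR-3082-5p (109 ± 8.02), miR-467f (99.7 ± 7.24) and miR-7047-5p (97.6 ± 8.84) came next. miR-29a-3p, of the miR-29 family that targets collagen mRNAs, had rank 20 with 96.2 ± 7.73. The last 5 of the 25 were miR-466i-3p (83.3 ± 6.24), miR-8117 (82.3 ± 6.73), miR-483-3p from the Igf2 gene (81.95 ± 6.18), miR-7042-5p (79.3 ± 6.78) and miR-188-5p. No neighbours among ranks 11 to 25 differed by over 2 combined errors.

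Late entries of the registry held the largest share of the signal among 3 classes by number. The 153 detected miRNAs numbered 5000 and above, of 782 on the array, carried 45.3% ± 0.852. The 44 detected miRNAs numbered from 1000 to below 5000, of 280, carried 28.4% ± 1.02, of which miR-3963 alone was 15.1%. The 132 detected miRNAs numbered below 1000, of 819, carried 26.3% ± 0.504. The share of miRNAs detected was closer between the classes than the share of signal, at 19.6%, 15.7% and 16.1% in the same order, beside 17.5% over the whole array. The median signal was 9.10 for the late class, 12.9 for the middle class and 11.4 for the early class. Early entries made up 2 of the 10 brightest, 10 of the 25 brightest and 23 of the 50 brightest miRNAs.

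By arm, miRNAs whose names carry no arm held the largest share of the signal, 43.8% ± 0.929 in 62 detected of 321. These include miR-3963, miR-6366, miR-8110 and miR-5100. The 5p arms held 31.3% ± 0.743 in 105 of 775, led by miR-6769b-5p. The 3p arms held 24.8% ± 0.469 in 162 of 785, led by miR-494-3p. The order of the arms turned with this normexp correction, to 34.1% for 3p arms, 30.9% for 5p arms and 35.0% for names with no arm. Over the whole array 20.6% of 3p arms, 13.5% of 5p arms and 19.3% of names with no arm were detected, beside 17.5% of all miRNAs. Among the late entries numbered 6900 to 7100, 63 of 195 3p arms (32.3%) and 33 of 197 5p arms (16.8%) were detected. More frequent detection of 3p arms was thus not particular to this range. The 3p arms of this range held 6.49% ± 0.152 of the signal and the 5p arms 5.34% ± 0.167. The brightest of each were miR-7047-3p (69.98) and miR-7036a-5p.

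Both arms were on the array for 723 hairpins. One arm or both were detected for 209 of them, with the 5p arm alone in 61, the 3p arm alone in 114 and both arms in 34. Of these 34, the 5p arm was the brighter in 20 and the 3p arm in 14, and 27 differed by over 2 combined errors. The median ratio of the brighter to the dimmer arm was 1.98. A ratio over 10 was found in 7 hairpins. It was largest in miR-6769b, where the 5p arm had 1247 ± 90.1 and the 3p arm 15.0 ± 1.60, a ratio of 83.1. In miR-466f the 3p arm was the brighter by 26.6 (76.0 ± 4.22 and 2.86 ± 0.483). In miR-211, which lies in the melanocyte gene Trpm1, the 3p arm was the brighter by 25.8 (48.7 ± 3.75 and 1.89 ± 0.429). miR-7036a had the brighter 5p arm by 18.9, and miR-466h the brighter 3p arm by 14.0. At the other end, the arms of miR-466m differed by a ratio of 1.01, those of let-7d by 1.09, and those of miR-7050, miR-7058 and miR-7082 by 1.18, 1.23 and 1.32. The 5p arm of let-7d is the strand that is usually loaded, and its 3p arm gave 12.3 ± 1.03 against 13.4 ± 1.57 for the 5p arm. Each ratio is between probes of unlike sequence.

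**Figure D2:**
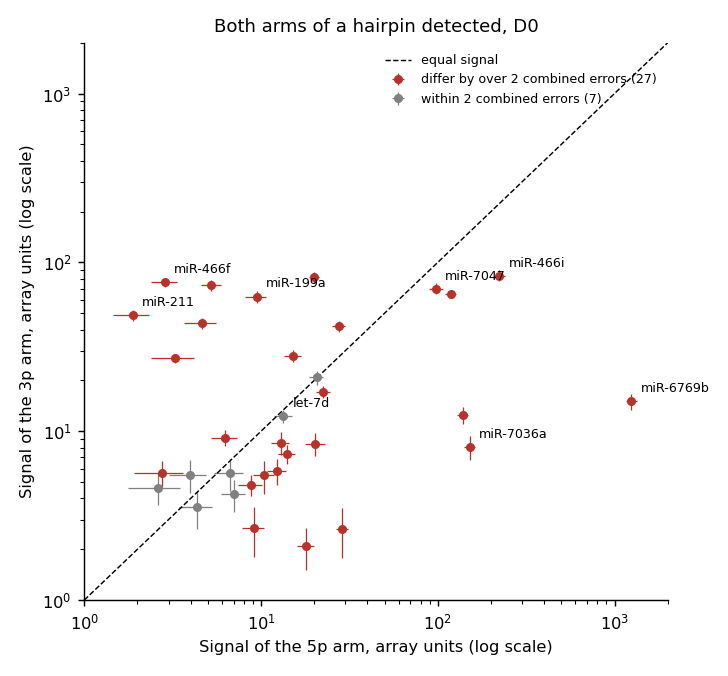
Signal of the 3p arm against signal of the 5p arm (array units, both axes log scale) for the 34 hairpins with both arms detected at D0, with bars for the error of the software and a dashed line at equal signal. Red points differ by over 2 combined errors (27) and grey points do not (7), and miR-6769b lies farthest from the line.

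Families with long repeats of CA or GU formed the largest group by name. The miR-297, miR-466, miR-467 and miR-669 names belong largely to a cluster in an intron of Sfmbt2, though RefSeq places some elsewhere, such as miR-467f within Fxr2 and miR-466i within Cdk13. Of 61 such miRNAs, 38 were detected (62.3%, beside 17.5% over the array), and they held 10.5% ± 0.247 of the signal. Their median signal was 23.5, beside 9.93 over all detected miRNAs, and 11 of them were among the 50 brightest. The miR-466 names held 5.06% in 12 of 23, the miR-669 names 3.10% in 17 of 23, the miR-467 names 2.27% in 8 of 12 and the miR-297 names 0.0683% in 1 of 3. The brightest were miR-466i-5p, miR-467f, miR-466i-3p and miR-669p-3p (76.9 ± 3.98). Their 3p arms were detected more often and were brighter, with 19 of 26 detected at a median of 27.9, than their 5p arms, with 12 of 25 at a median of 6.10. RefSeq sequences were matched for 6 of the 38. Printed below are the brightest 3 of these 6, all CA repeats, and 3 bright GU repeats with other names, to show how alike these RNAs are outside the seed.
miR-467f: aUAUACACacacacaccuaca
miR-466i-3p: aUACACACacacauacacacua
miR-466q: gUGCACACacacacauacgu
miR-574-5p: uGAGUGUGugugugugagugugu
miR-3082-5p: gACAGAGUgugugugucugugu
miR-1187: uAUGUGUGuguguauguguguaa
The GU repeats are close to the reverse complement of the CA repeats. Whether members of these families bind each other's probes was not tested.

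The let-7 family, which represses Lin28 and growth genes in differentiated cells, was widely detected at moderate signals. Of 10 guide arms on the array, 8 were detected (80%, beside 17.5% over the array), and they held 1.20% ± 0.0488 of the signal. let-7f-5p was the brightest at 31.9 ± 2.98 (rank 58), followed by let-7a-5p at 27.7 ± 2.44, let-7i-5p at 21.5 ± 1.98 and let-7e-5p at 20.6 ± 1.95. The other detected members ran from 15.0 ± 1.68 for let-7c-5p down to 8.79 ± 1.34 for let-7g-5p. let-7k and miR-98-5p were not detected. These 8 share the seed GAGGUAG, and they summed to 152.9, the most of any seed shared by 2 or more of the 265 detected miRNAs with a sequence. Most of the miR-466, miR-467 and miR-669 names have no sequence here and so no seed. The sequences of the let-7 guide arms are close, which is shown for the brightest 4 and let-7d-5p.
let-7f-5p: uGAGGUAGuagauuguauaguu
let-7a-5p: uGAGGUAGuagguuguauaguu
let-7i-5p: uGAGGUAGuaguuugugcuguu
let-7e-5p: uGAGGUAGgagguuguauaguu
let-7d-5p: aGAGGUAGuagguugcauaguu
let-7f-5p and let-7a-5p differ at 1 base, as do let-7a-5p and let-7e-5p. Whether their probes separate them was not tested. Near-identical detected miRNAs, with at most 2 differing bases, numbered 10 among the 265 with a sequence (the 8 let-7 guide arms, miR-103-3p and miR-107-3p). They held 1.27% of the signal, and none was among the 25 brightest. Only 6 of the 38 detected miR-297, miR-466, miR-467 and miR-669 names had a sequence. Likeness among the rest of those names could not be counted. Of the let-7 passenger arms, 3 of 11 were detected (27.3%, beside 17.5%), let-7d-3p, let-7b-3p (7.34 ± 0.905) and let-7g-3p (4.83 ± 0.711).

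Among seeds, 243 different ones were found in the 265 detected miRNAs with a sequence. A total of 15 seeds were shared by 2 or more of them, covering 37 miRNAs. The 8 brightest seeds over all belonged to 1 miRNA each, from GUAUCCC (miR-3963, 15.1%) to GAAACAU (miR-494-3p, 1.74%). After let-7, the brightest shared seed among them was AGCACCA, with miR-29a-3p and miR-29b-3p at 126 in sum.

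miRNAs typical of mesenchymal cells were detected in part. Of 13 such miRNAs on the array 8 were detected (61.5%, beside 17.5%), with a median of 23.6 and 2.43% ± 0.116 of the signal. miR-21a-5p led the list, followed by miR-199a-3p at 62.8 ± 4.98, miR-125b-5p at 31.9 ± 3.39 and miR-22-3p at 23.7 ± 2.34. miR-214-3p, which is transcribed with miR-199a from Dnm3os, had 23.5 ± 2.23. miR-199a was the brighter on its 3p arm by 6.66, with 9.43 ± 1.27 on the 5p arm. miR-143-3p and miR-145a-5p, which are transcribed together and are abundant in smooth muscle and stromal cells, were not detected, nor were miR-31-5p, miR-100-5p and miR-222-3p. Their best probes gave 0.487, -0.313, 2.40, 1.05 and 0.968 in that order. Set against 3 errors over all probes, such a miRNA could have had a signal of up to 4.91 to 5.03.

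Of 16 miRNAs described as promoting adipogenesis 6 were detected (37.5%, beside 17.5% over the array), with a median of 3.60 beside 9.93. At a threshold of 5 errors miR-21a-5p alone remained. miR-107-3p had 4.25 ± 0.933, miR-103-3p 4.11 ± 0.929 and miR-30d-5p 3.08 ± 0.884. miR-26b-5p (2.73 ± 0.867) and miR-193b-3p (2.63 ± 0.864) lay at ranks 313 and 319 of 329. Not detected were, among others, miR-143-3p, miR-378a-3p, miR-204-5p and miR-148a-3p. Of 16 miRNAs described as restraining adipogenesis 5 were detected (31.2%), with a median of 15.4. These were miR-214-3p, miR-27a-3p (18.0 ± 1.90) and miR-130a-3p (15.4 ± 1.61), of which the latter pair target Pparg, and miR-125a-5p (6.28 ± 1.04) and miR-221-3p (4.86 ± 0.967). miR-27b-3p and miR-130b-3p, their near relatives, were not detected.

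Broadly expressed families were unequal, and their counts stand beside 17.5% detected over the array, which 1 of 5 or 1 of 4 hardly differs from. All members were detected for miR-26, for miR-103 and miR-107, and for miR-125, with 2 of 2 each. At a threshold of 5 errors the miR-125 pair remained, whereas miR-26, miR-103 and miR-107 had 0 members left, as had the miR-30 family and that of miR-99 and miR-100, and the miR-17-92 group had 2. The miR-23, miR-24 and miR-27 group had 4 of 5 members, led by miR-23a-3p at 46.7 ± 4.26 and miR-24-3p at 27.0 ± 2.30. The miR-29 family had 2 of 3, with miR-29b-3p at 29.6 ± 3.19. In the family of miR-15 and miR-16 3 of 6 were detected, led by miR-15b-5p (14.1 ± 1.57) and miR-322-5p (13.1 ± 1.51). The miR-17-92 and paralogous clusters, which favour cell proliferation, had 5 of 12, from miR-92a-3p at 7.65 ± 1.14 down to miR-25-3p at 2.77 ± 0.868. In the miR-30 family miR-30d-5p alone was detected of 5. The miR-34 family, targets of p53, had miR-34a-5p at 5.11 ± 0.972 of 3 members. The family of miR-130 and miR-301 had 1 of 4, and that of miR-99 and miR-100 had 2 of 3, miR-99b-5p (4.12 ± 0.919) and miR-99a-5p (3.00 ± 0.879). None of the 3 members of the family of miR-148 and miR-152 and none of the 4 of the Hox clusters (miR-10 and miR-196) was detected. Of 95 names listed for the Dlk1-Dio3 region 4 were detected (4.21%), miR-494-3p, miR-485-3p (11.5 ± 1.01), miR-370-3p (7.22 ± 1.28) and miR-667-3p (1.61 ± 0.415). The list of names is not complete for the region. RefSeq also places miR-1188-3p (45.3 ± 3.56) in Rian, miR-3072-5p (4.84 ± 0.959) in Mirg and a copy of miR-1906 (13.8 ± 1.53) in Meg3, which are non-coding genes there, and these 3 were named after their values were seen.

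**Figure D3:**
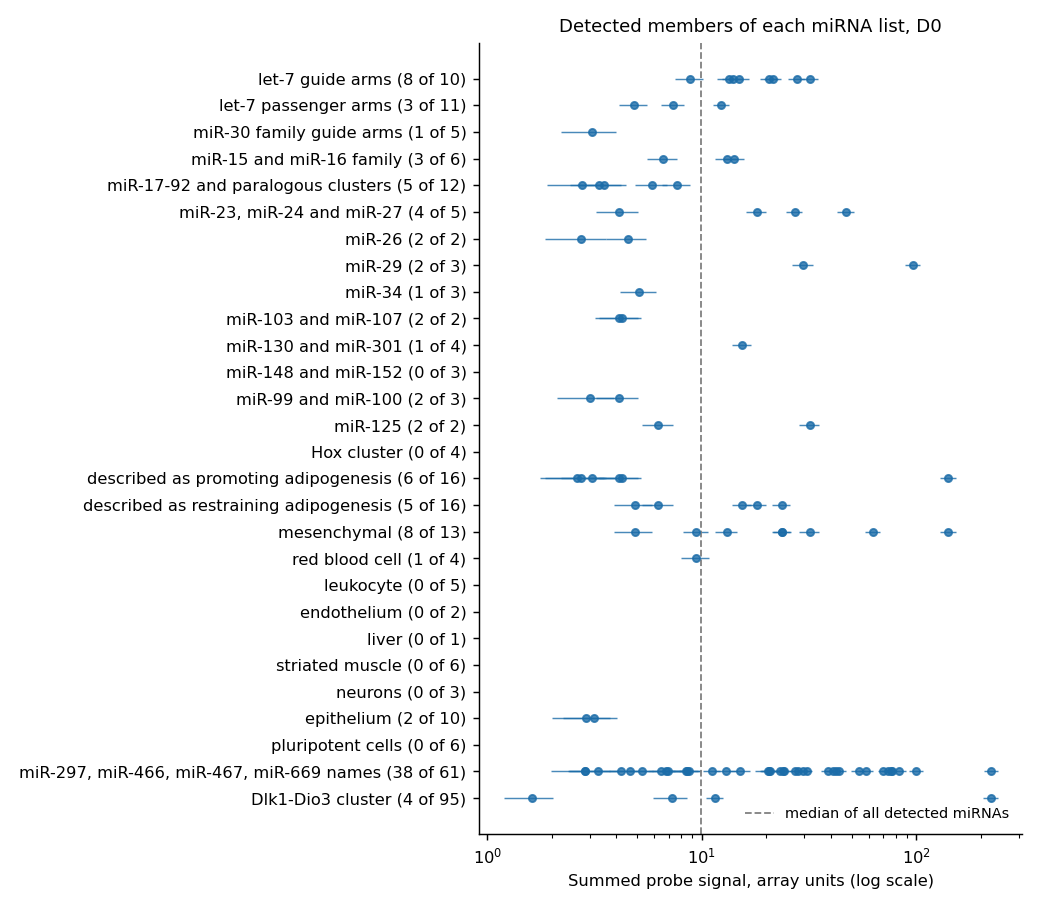
Signal (array units, log scale) of each detected member of the miRNA lists at D0, with bars for the error of the software, and in brackets the members detected of those on the array. The dashed line is the median of all 329 detected miRNAs (9.93), and the miR-297, miR-466, miR-467 and miR-669 names are the list with the most members detected (38 of 61).

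Of the defining miRNAs of other cell types, miR-451a, miR-182-5p and miR-96-5p were detected. These lists are short, and their counts stand beside the 17.5% of all miRNAs detected on the array. None was detected of 5 miRNAs of leukocytes (miR-142a, miR-150, miR-155, miR-223), of 2 of endothelium (miR-126a), of 6 of striated muscle (miR-1a, miR-133, miR-206 and others), of 3 of neurons, of 6 of pluripotent cells, or of miR-122-5p of liver. In the list of epithelium, miR-182-5p (3.15 ± 0.885) and miR-96-5p (2.88 ± 0.871) were detected of 10, at ranks 289 and 303, and neither passed a threshold of 5 errors. In the list of red blood cells miR-451a, which is abundant in erythroid cells, was detected at 9.40 ± 1.37 (rank 170), close to the median of 9.93, and miR-144-3p, miR-144-5p and miR-486a-5p were not. The medium held exosome depleted bovine serum, and whether serum RNA gave part of any signal was not tested.

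The detected miRNAs were richer in G and C than the rest. Of the 1881 miRNAs 1608 had a RefSeq sequence, as had 265 of the 329 detected ones (80.5%), which held 86.8% of the signal. The median G + C content was 58.3% in these 265 and 50% in the 1343 that were not detected. The share detected was 8.97% below 40% G + C, 9.16% from 40 to 50%, 16.6% from 50 to 60%, 26.3% from 60 to 70% and 30.9% at 70% and above, beside 16.5% over all 1608. Within the detected miRNAs the signal did not follow G + C, with a Spearman's rho of 0.036 across 265 miRNAs, which share 1 array and are not independent replicates. miR-3963 has 47.4% G + C and miR-21a-5p 36.4%, whereas miR-5126 consists of G and C alone.

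**Figure D4:**
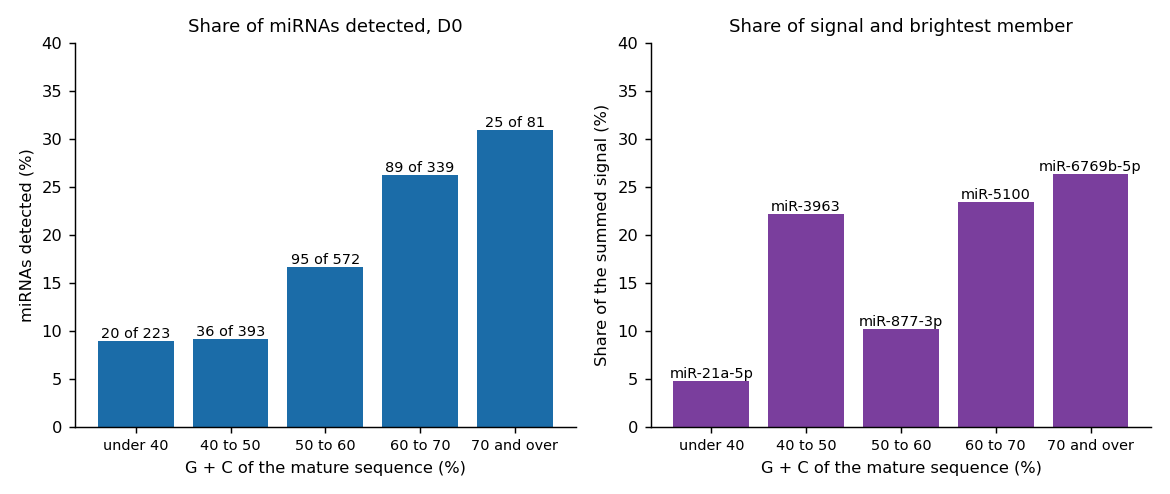
Left, share of miRNAs detected at D0 (%) by the G + C content (%) of the mature sequence, with the numbers detected of those on the array above each bar. Right, share of the summed signal (%) in the same classes, with the brightest member of each; the share detected rises from 8.97 to 30.9%, and the share of signal does not follow it.

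Runs of G were common among the brightest miRNAs. A run of GGG or longer was found in 12 of the 22 miRNAs with a sequence among the 25 brightest, in 30.2% of all detected miRNAs and in 30.4% of all those on the array. Its holders carried 41.5% of the signal. A run of GGGG was present in 8 of these 22, in 15.8% of the detected miRNAs and in 11.3% of those on the array, and its holders carried 33.5%. The median signal of detected miRNAs was nevertheless 9.25 with GGGG and 9.28 without it. The median G content was 43.2% in these 22, 22.7% in all detected miRNAs with a sequence and 27.3% in those not detected. The longest run was that of miR-8110, with 10 G at its 3′ end. GGAG, described as a motif of miRNAs sorted into exosomes and counted on the mature strand as all motifs here, was present in 20.8% of the detected miRNAs and 14.4% of the array, CCCU in 21.5% and 11.7%, and GGCU in 13.2% and 13.1%. UGUGUG was present in 3.40% and 1.55%, and ACACAC in 2.26% and 0.684%. This last pair of repeats and GGGG were chosen after the sequences of the brightest miRNAs had been seen. A match is a description of letters and not of a sorting event.

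Reliability fell with the signal. The error was 13.2% of the signal in the median miRNA and ran from 5.13% for miR-877-3p to 33.2% for miR-705. It was at or below 10% in 110 miRNAs and above 20% in 86. In the brightest 110 miRNAs, which held 87.6% of the signal, the median error was 8.07%. In the middle 109 it was 13.4%, and in the dimmest 110, which held 3.41%, it was 23.4%. An error taken from the spread of spots alone changed less, with a median of 3.83% in the 50 brightest and 5.29% in the other 279. Of these dimmest 110, 92 were detected through 1 of several probes, against 6 of the middle and 3 of the brightest group. All of the 50 brightest were detected through 2 or more probes.

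**Figure D5:**
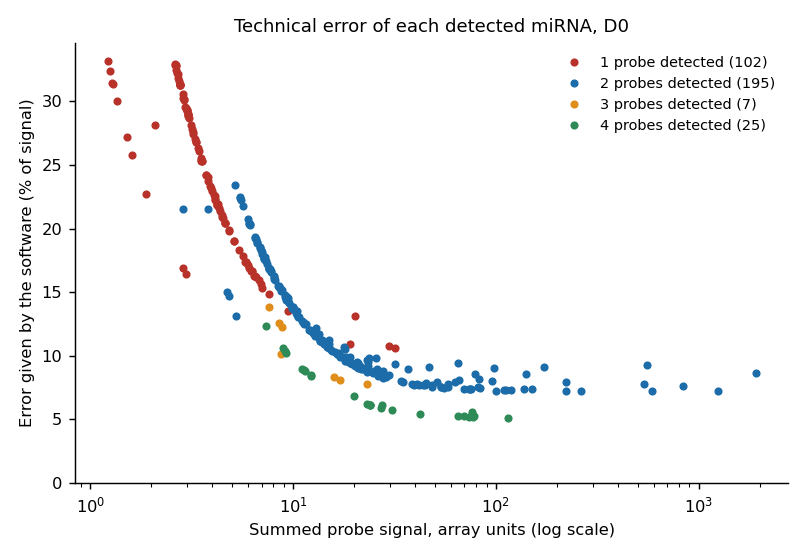
Error of the software (% of the signal) against the summed probe signal (array units, log scale) for each of the 329 miRNAs detected at D0, coloured by the number of probes detected. The 25 miRNAs with 4 detected probes have the smallest errors at a given signal, and those above 20% are dim and mostly rest on 1 probe.

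Replicate spots of a probe varied by a median coefficient of variation of 19.8% in the brightest probe of each of the 50 brightest miRNAs. miR-29a-3p was the most even at 6.88%, with spot signals from 304 to 392 and a median of 340.9. miR-199a-3p was the least even at 32.2%, with spot signals from 124 to 273 and a median of 153. miR-1224-5p, at 30.7%, ran from 910 to 2383 between its spots, and miR-21a-5p, at 28.8%, from 296 to 697. miR-3963 had 26.0%. Spot signals also differed by position on the slide. Spots in the left part of the array were dimmer than spots of the same probe in the right part in 50 of the 50 brightest miRNAs, with a median ratio of 0.697, and in 276 of the other 279, with 0.675. In 8 column blocks from left to right, the median log2 signal relative to the same probe was -0.49, -0.35, -0.27, -0.02, 0.10, 0.17, 0.18 and 0.15. Every detected miRNA had spots on both sides.

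Probes of the same miRNA also disagreed in some cases. The ratio of the brightest to the dimmest detected probe had a median of 1.26 over 227 miRNAs, exceeded 2 in 40 and exceeded 5 in 8. Among these 227 it was largest in miR-6908-5p (59.6 and 5.78, a ratio of 10.3) and in miR-5100 (508 and 50.2, a ratio of 10.1). miR-2137 followed with 7.38, miR-7047-5p with 7.20 and miR-23a-3p with 5.59. These 5 were also the 5 with the largest relative error among the 50 brightest, from 9.44% down to 9.06%. That error combines the errors of the probes, so it depends on how evenly they share the signal and is no separate evidence. From the spread of spots alone, the error of these 5 ran from 3.83% (miR-6908-5p) to 4.89% (miR-2137). The median of the 50 brightest was 3.83%, and miR-188-5p had 3.98%. For miR-3963 the probes gave 1561 and 357. For miR-6769b-5p they gave 645 and 602, and for miR-8110 296 and 291. miRNAs detected through 1 of several probes have no such ratio, so wider disagreements are left out of it. The brightest of them were miR-125b-5p, with 31.9 on its detected probe and 1.62 on the other, and miR-29b-3p, with 29.6 and 1.09. Their probes lay further apart, as a ratio, than those of miR-6908-5p, though the dimmer probe was not detected. The smallest errors among the 50 brightest, from 5.13% to 5.24%, were those of miR-877-3p, miR-669p-3p, miR-207, miR-188-5p and miR-574-3p, each with 4 detected probes.

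At the limit of detection the call separated nearly equal values. Just inside lay miR-705 (best probe 3.01 errors), miR-6897-3p (3.02), miR-193b-3p (3.04), miR-6931-3p (3.05) and miR-7034-5p (3.05). Just outside lay miR-365-3p, miR-1896 and miR-615-3p (2.98 each), miR-151-5p (2.97) and miR-7025-3p (2.96). The best probe lay between 2 and 3 errors in 110 miRNAs that were not detected, and between 3 and 4 errors in 67 that were. The dimmest detected miRNAs were miR-705 (1.22 ± 0.404), miR-335-3p (1.25 ± 0.405), miR-671-5p (1.29 ± 0.405), miR-33-3p (1.30 ± 0.406) and miR-5624-5p (1.36 ± 0.407), each read by 1 of 4 probes.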

How the data were processed

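RNA of the exosome fraction at D0 was extracted with the mirVana kit, labelled with pCp-Cy3 by T4 ligase and hybridised. The authors deposited the Feature Extraction 11.0.1.1 output (version 11.0 per the labels) as intensity values, background-subtracted per spot and not scaled between arrays. The software leaves out flagged spots (664 of 56430, 1.18%) and found 0 saturated. The deposited total gene signal, its detection call and its error were recomputed from the probes and matched. Undetected miRNAs are listed at 0.1. The number of spots limits the precision, and the array has no replicate.

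Shares, ranks and their errors, propagated from independent errors per miRNA, were computed with Python 3.11.15, pandas 2.3.3 and scipy 1.17.1, and normexp with limma 3.58.1 in R 4.3.3. The steps were tested on simulated data. Named miRNAs are the 25 brightest, the 5 dimmest, those nearest the detection limit, the extremes of error, probe ratio and arm ratio, the 8 brightest seeds and up to 4 members of a list (all detected members for other cell types), and a few more were named after their values were seen. Members and lists were chosen with earlier results of these data known. Alternatives concerned detection, probe and spot summaries, background, sides of the array, flagged spots and position. The other 3 arrays were not used.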

Additional observations from a re-analysis of the deposited data

How the results depend on the processing

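The 10 brightest miRNAs were the same 10 under all 11 alternatives, the 6 brightest were the same 6, and 23 to 25 of the 25 brightest were shared. The alternatives of detection threshold only drop or add dim probes, and those of flagged spots rest on nearly the same spots. They could hardly move these ranks, and their largest shift was 0. The alternatives of probe, median of spots, background, side and position could move them. miR-188-5p fell from rank 25 to 49 with the brightest probe alone, and miR-877-3p from 15 to 38 in the spots of the right side. The number detected was 213 with a threshold of 5 errors and 1066 with no threshold, when every positive sum counts. It was 394 from the spots of the right side and 277 from those of the left side, beside 329 from all spots. For each side, the mean of its spots was set against 3 times the error of all spots. That error was not recomputed for the side, so a brighter side passes more often. Where 50% of spots had to be well above background, the number detected was 235. The share of the 10 brightest was 53.8% where 50% of spots had to be well above background, 54.6% at 5 errors, 47.5% with no threshold, 55.2% with the brightest probe alone and 52.5% from the left side. Normexp correction, which adds 50 to each spot and so raises dim spots most relative to bright ones, gave 34.6% for the 10 brightest and 36 miRNAs for 50% of the signal. The share of miRNAs numbered 5000 and above was 44.2% with the brightest probe alone. The let-7 guide arms held 1.14% with no threshold, 1.33% with the brightest probe alone and 1.81% with normexp. The share of the 3p arms rose from 24.8 to 34.1% with normexp, above that of the 5p arms (30.9%). In all, 49 values stayed within the error or within 1.5 times the main count and 13 moved. The 49 include the shared ranks of the 25 brightest under all 11 alternatives, and settings that could hardly move a value. The fall from 329 to 235 detected also counts as staying, so the tally is a loose measure. Leaving out flagged spots changed no value, since the software already does so. Keeping them, chosen after seeing the data, moved none beyond the error, but only probes already detected without them were summed. The brightest flagged spots, such as those of miR-1928 (339949) and miR-883b-5p (214037), belong to undetected miRNAs and did not enter. Their effect on ranks and shares was therefore not tested. Dividing by the median of position blocks left the shares of the 10 brightest, of miRNAs numbered 5000 and above and of let-7 within the error, while the miR-34 list went from 0.0402 to 0.0572% with 2 members in place of 1. Scaling between arrays was not run, because 1 common factor changes neither shares nor ranks. No paired analysis was possible because 1 array is described.

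The array gives no variation between cultures, and below the first 10 ranks no neighbours in the order differ by over 2 errors. miRNAs under a signal of about 5 can be missed.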
